A study of Mus musculus with 6 samples.

Results

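The genes described here carry glucose through glycolysis or respond to low oxygen, and they were followed in mouse pre-B leukemia cells that were given the adaptor gene Blnk or the vector alone. The set was given as a list of 38 gene symbols: 2 glucose carriers, 15 glycolytic enzymes, 4 regulators of glycolysis, 2 lactate carriers, the hypoxia factor gene Hif1a and 14 hypoxia targets that have no step in glycolysis. A gene was represented by its brightest probe among the probes annotated to that symbol alone, as the mean over the 6 arrays. Of the 38 genes, 35 had such a probe and were measured, out of 19938 genes in all. Gapdh was read by 25 probes that are annotated to several genes at once and was therefore left out, and no probe was found under the symbols Eno1 and Gpi1.

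Both groups were pre-B cells of Balb/c mice aged 4 weeks, labelled as Blnk knockout and transformed by BCR-ABL1, a fused tyrosine kinase that causes a form of acute lymphoblastic leukemia. The 3 control samples were transduced with the vector pMIG, which carries GFP, and the 3 others with Blnk (Slp65), a scaffold protein through which the pre-B cell receptor reaches the enzymes below it. Sorted GFP-positive cells gave the RNA, 5 days after transduction, and it was hybridised to Affymetrix arrays, 1 per sample. The labels number the samples 1 to 3 in each group and do not say if cultures or animals were separate. The p-values then measure only how these samples vary, and that variation may be technical. The knockout background is shared by both groups, and no sample with an intact Blnk gene was part of the comparison.

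Blnk itself was at an intensity of 972, 926 and 1013 in the pMIG arrays and of 2714, 3342 and 3022 in the Blnk arrays, a log2 difference of 1.64. Array medians lay between 67 and 70, so the Blnk probe was bright in the knockout cells with pMIG too. Whether that probe lies inside the deleted part was not determined. B-lineage markers were bright on every array, with summed intensities of 29159 to 30675 over 8 measured markers. Of these 8, Cd79a rose by 0.31 and Vpreb1, a part of the surrogate light chain, fell by 0.68 on the log2 scale. At an unadjusted p under 0.05 in limma, 4 of the 8 were higher and 3 lower, beside 8.91% and 6.32% of all genes. Among them Cd79b, Cd22 and Ptprc were also higher and Ebf1 and Igll1 also lower, so the sum hides moves in both directions. The part of these shifts in the results that follow was not tested. Markers of other cell types were dim, with Cd8a (134 to 255), Cd3e (73 to 91) and Col1a1 (108 to 149) the only ones above every array median. The 7 myeloid markers summed to 230 to 251 on each array, 4 megakaryocyte markers to 145 to 179, 6 T and NK markers to 292 to 412, and 5 stromal and endothelial markers to 277 to 358. Of the erythroid list 2 of 5 markers were measured, and these summed to 94 to 119. Outside the B-lineage list 0 markers changed by limma, with 1, the endothelial Cdh5, at an unadjusted p under 0.05. Detection calls were not used here, so no marker is called absent.

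Glycolysis splits glucose into pyruvate in the cytosol. Glucose enters through carriers of the SLC2A family, is trapped by hexokinases and committed to breakdown by phosphofructokinase, and pyruvate is either passed to mitochondria or turned into lactate, which leaves through carriers of the SLC16A family. HIF-1, a pair of HIF1A with a constant partner, is a transcription factor that is degraded after prolyl hydroxylation when oxygen is plentiful. When stable it binds a short core sequence in promoters and enhancers of most glycolytic genes, and of genes with other tasks such as blood vessel growth, mitophagy and collagen modification. In pre-B cells and in BCR-ABL1 leukemia, glucose use is driven by growth factor and oncogene signals also at normal oxygen.

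With Blnk, 4 of the 35 measured genes fell and 0 rose. At an unadjusted p under 0.05 there were 16 lower and 1 higher, where 6.32% of all genes were lower and 8.91% higher. The genes that fell were Pdk1, Bnip3, Slc16a1 and Pfkl, with log2 differences between -0.41 and -0.87. This count rests on limma with Benjamini-Hochberg adjustment over all 19938 genes and a threshold of 0.05, in which 1.10% of all genes fell and 2.51% rose. After repeated quantile normalization 411 genes of the whole array rose and 327 fell, and after centring arrays on their medians 417 rose and 291 fell, against 500 and 220 in the values as deposited. Most of the other glycolysis and hypoxia genes had smaller fitted differences below 0 that did not pass. Some of these were close to 0, such as those of Aldoc and Pfkfb3 (-0.02 each). In 28 of 35 genes the fitted difference was below 0, compared with 10051 of 19938 genes, and the median log2 difference was -0.16 compared with 0.00 over all genes. In 17 of 35 genes every Blnk array was below every pMIG array, where 8.15% of all genes show this, and in 2 genes every Blnk array was above, where 11.8% of all genes show that.

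These are mostly bright genes. Of the 35 genes, 30 were above the median on every array. Among all 9863 genes that were, 12.7% had every Blnk array below every pMIG array, and the median log2 difference was 0.01. Of the 12 members with a mean intensity above 1000, 8 had every Blnk array lower, compared with 12.6% of the 1654 genes above that intensity. Hk1 counts among these 12 through a probe that is uncertain as a measure of Hk1, as described below.

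**Figure D1:**
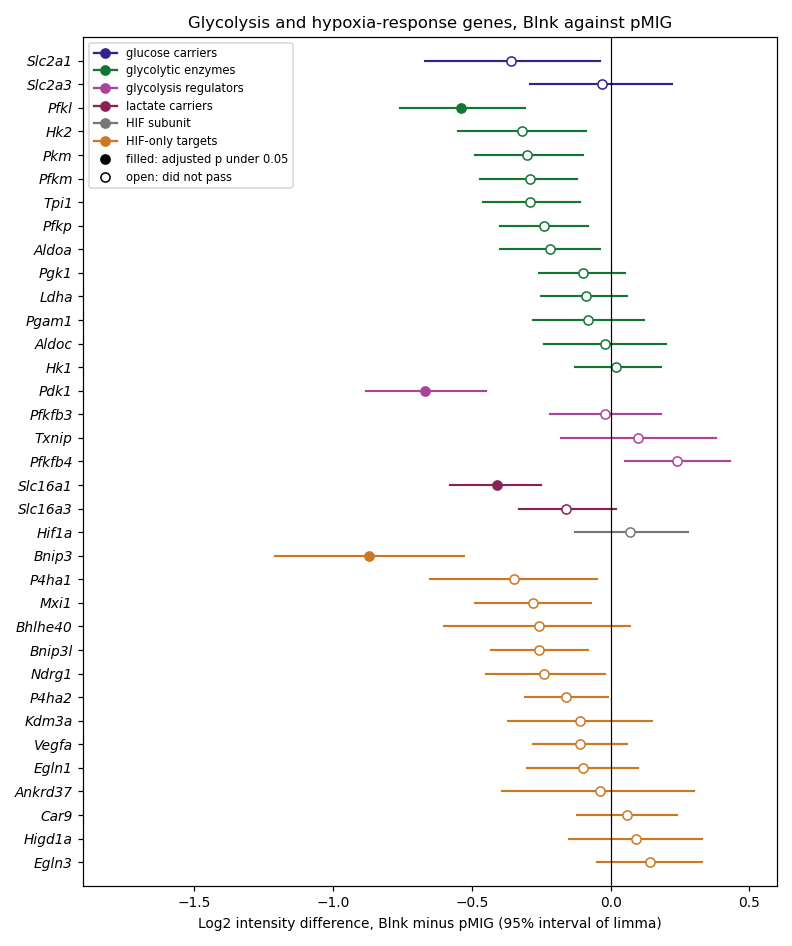
Log2 intensity difference between Blnk and pMIG samples (x axis) for the 35 measured genes, in blocks by role, with 95% intervals of limma for 3 arrays per group. The filled points are Bnip3, Pdk1, Pfkl and Slc16a1, the 4 genes past an adjusted p of 0.05, and 28 of the 35 points lie left of 0.

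Pdk1 encodes a kinase that switches off pyruvate dehydrogenase and so keeps pyruvate out of the mitochondrial cycle. Its intensity was 565, 618 and 659 in the pMIG arrays and 401, 350 and 411 in the Blnk arrays. Every Blnk array lay below every pMIG array, and the gap between the groups was wider than the range within either. The mean fell from 614 ± 47.1 to 387 ± 32.7 (SD, n = 3), a log2 difference of -0.67 (SE 0.0926, limma adjusted p = 0.00827). With 1 array left out Pdk1 passed in 5 of 6 cases and missed the threshold without pMIG 3 (limma adjusted p = 0.0588).

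Bnip3 encodes a mitochondrial outer membrane protein that marks mitochondria for mitophagy, and it is a textbook HIF target outside glycolysis. Its intensity was 1138, 1125 and 1278 with pMIG and 617, 538 and 810 with Blnk. It showed the largest difference of the 35 genes, and Blnk 3 lay closer to the pMIG arrays than Blnk 1 and Blnk 2 did. The mean fell from 1180 ± 84.8 to 655 ± 140 (SD, n = 3), a log2 difference of -0.87 (SE 0.145, limma adjusted p = 0.0182). Bnip3 passed without Blnk 3 (limma adjusted p = 0.00862) and did not pass with any other array left out, with adjusted p of 0.0672 (without pMIG 2) to 0.115 (without pMIG 3).

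Slc16a1 encodes the monocarboxylate carrier MCT1, which moves lactate and pyruvate across the plasma membrane. Its intensity was 2767, 2831 and 2805 with pMIG and 2238, 1979 and 2094 with Blnk. The pMIG arrays were within a narrow range and the Blnk arrays all lay well under it. The mean fell from 2801 ± 32.2 to 2104 ± 130 (SD, n = 3), a log2 difference of -0.41 (SE 0.0717, limma adjusted p = 0.021). It passed without Blnk 1 (limma adjusted p = 0.0326) and in no other fit on 5 arrays, where adjusted p ran from 0.0659 (without pMIG 1) to 0.101 (without pMIG 3).

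Pfkl encodes the liver-type subunit of phosphofructokinase, the committing step of glycolysis. Its intensity was 1099, 1107 and 1187 with pMIG and 788, 688 and 870 with Blnk. The groups did not overlap, and Blnk 2 was the lowest array. The mean fell from 1131 ± 48.7 to 782 ± 91.1 (SD, n = 3), a log2 difference of -0.54 (SE 0.0968, limma adjusted p = 0.0253). It passed without Blnk 3 (limma adjusted p = 0.0366) and in no other fit on 5 arrays, where adjusted p ran from 0.0744 (without Blnk 2) to 0.134 (without pMIG 3).

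**Figure D2:**
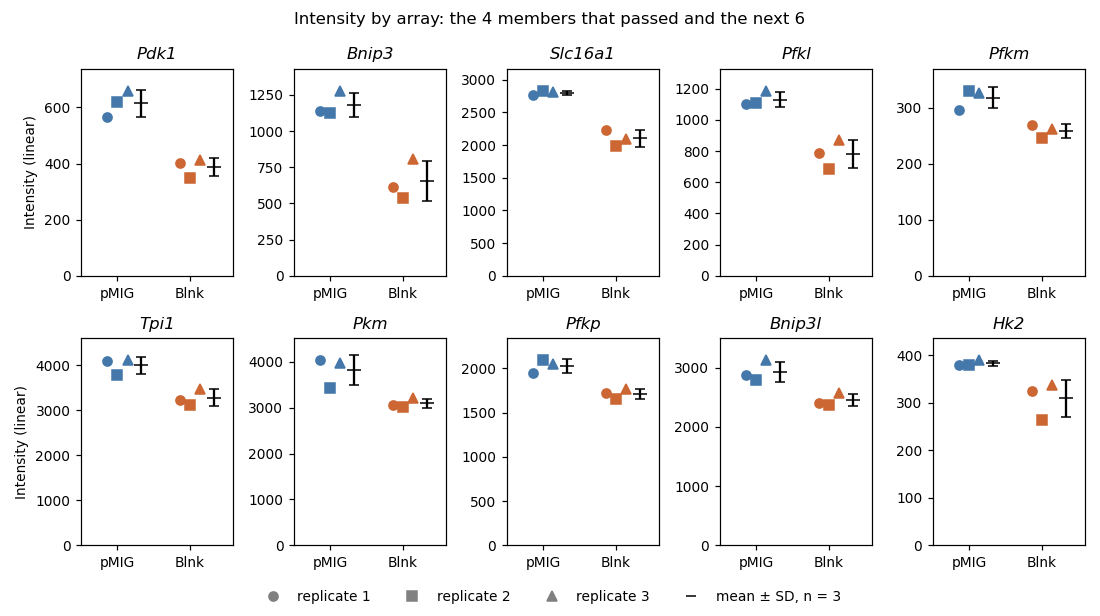
Linear intensity (y axis, from 0) on each array of the 4 genes that passed and of the 6 with the next smallest adjusted p, with replicates 1 to 3 as circles, squares and triangles and the mean ± SD (n = 3) beside them. In all 10 genes the 3 Blnk arrays lie below the 3 pMIG arrays, which choosing genes by adjusted p on these same arrays favors. In Bnip3 the Blnk arrays stand at 617, 538 and 810.

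The 250 bases before the start of these 4 genes are given because they fell together and because HIF acts through a core of ACGTG or GCGTG. The sequences come from the RefSeq promoter table of the GRCm38.p6 assembly and are written 5′ to 3′ on the strand of the gene. Capitals mark ACGTG and GCGTG on that strand and, where the core lies on the opposite strand, CACGT and CACGC.
Pdk1 promoter, chr2:71872974-71873223, plus strand: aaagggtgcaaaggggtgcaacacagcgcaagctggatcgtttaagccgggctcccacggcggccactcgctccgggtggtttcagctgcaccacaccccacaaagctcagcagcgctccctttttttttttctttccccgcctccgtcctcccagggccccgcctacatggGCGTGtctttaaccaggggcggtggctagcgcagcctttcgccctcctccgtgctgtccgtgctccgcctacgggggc
Bnip3 promoter, chr7:138909507-138909756, minus strand: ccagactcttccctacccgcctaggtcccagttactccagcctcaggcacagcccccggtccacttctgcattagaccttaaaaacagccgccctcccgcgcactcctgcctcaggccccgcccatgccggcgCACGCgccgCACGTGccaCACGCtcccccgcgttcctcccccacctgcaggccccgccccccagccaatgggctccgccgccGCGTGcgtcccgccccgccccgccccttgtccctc
Slc16a1 promoter, chr3:104638414-104638663, plus strand: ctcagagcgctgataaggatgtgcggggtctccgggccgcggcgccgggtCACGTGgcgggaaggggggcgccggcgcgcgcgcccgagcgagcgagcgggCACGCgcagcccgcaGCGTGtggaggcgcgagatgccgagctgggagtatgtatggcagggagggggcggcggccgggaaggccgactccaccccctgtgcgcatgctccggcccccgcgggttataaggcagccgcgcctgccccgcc
Pfkl promoter, chr10:78009808-78010057, minus strand: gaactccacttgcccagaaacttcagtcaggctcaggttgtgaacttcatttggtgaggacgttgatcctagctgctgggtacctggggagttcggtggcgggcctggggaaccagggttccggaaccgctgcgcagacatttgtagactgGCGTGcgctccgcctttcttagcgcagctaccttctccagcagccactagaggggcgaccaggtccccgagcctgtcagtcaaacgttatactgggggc
The Pdk1 window held 1 match, a GCGTG that begins 78 bases before the start, and the Pfkl window held 1, a GCGTG that begins 99 bases before it. The Bnip3 window held 5 matches between 117 and 35 bases before the start, and the Slc16a1 window 4 between 200 and 134 bases. In both of them a CACGTG, the palindromic E-box that MYC and its relatives bind, was counted as 2 overlapping matches. A further start of Pdk1 in the table had 0 matches in its window.

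The core was also present in most members that did not fall. Of 31 measured members with an entry, 30 had ACGTG or GCGTG on either strand in the window of at least 1 start (96.8%), among them all 4 that fell and 26 of the other 27, and the exception was Tpi1. The share was 49.9% of the 15614 tested genes with an entry. By window it was 78.7% of 47 windows for the members, 46.2% of 19177 windows for the tested genes and 38.6% of all 32851 windows. GC content differed as well, with a median of 62.8% in the members' windows and 56.8% in those of all genes tested, and its part in these shares was not tested. CACGTG alone was in 12.8% of the members' windows and in 6.99% of those of all genes tested. Many of these genes were listed because they are known HIF targets, so the shares describe the list and say nothing about binding in these cells.

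Along the glycolytic pathway, 1 of 12 measured enzymes fell and 0 rose by limma, beside 1.10% and 2.51% of all genes. A fitted difference below 0 was found in 11 of the 12, compared with 50.4% of all genes. Their median log2 difference was -0.23. At an unadjusted p under 0.05 the enzymes had 7 lower and 0 higher, beside 6.32% and 8.91% of all genes. The glucose carrier Slc2a1 (GLUT1), the main entry route in lymphoid cells, was at 753, 811 and 855 with pMIG, against 606, 532 and 774 with Blnk. Blnk 1 and Blnk 2 lay below all pMIG arrays and Blnk 3 within their range, and the log2 difference of -0.36 did not pass (SE 0.135, limma adjusted p = 0.262). Slc2a3 (GLUT3) was dim, at 39 to 52 on all arrays, with a log2 difference of -0.03 (95% interval -0.29 to 0.22).

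Hexokinase 2, the inducible enzyme that traps glucose as glucose 6-phosphate, was at 380, 379 and 389 with pMIG, against 324, 264 and 338 with Blnk. The groups of Hk2 were apart, with a log2 difference of -0.32 that did not pass (limma adjusted p = 0.169). For Hk1, the constitutive hexokinase, the brightest probe was at 10433 to 11324 on all arrays with a log2 difference of 0.02. That probe lists no RefSeq mRNA, and 16 further probes that are annotated to Hk1 together with a ribosomal protein gene stood at 4640 to 13013. The Hk1 probe that does list RefSeq mRNAs was at 158, 160 and 155 with pMIG, against 144, 138 and 160 with Blnk, a log2 difference of -0.10 with overlapping groups. The value of the brightest probe is therefore uncertain as a measure of Hk1, and it enters the counts and averages of the enzymes. With probes that list a RefSeq mRNA, which replaces the Pkm probe too, the enzyme median was -0.22 rather than -0.23.

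All 3 phosphofructokinase subunits were lower on every Blnk array than on any pMIG array, where 8.15% of all genes show this. Only the liver type passed. Pfkm, the muscle type, was at 296, 330 and 326 with pMIG, against 269, 245 and 262 with Blnk (log2 difference -0.29, SE 0.0764, limma adjusted p = 0.0961). Pfkp, the platelet type, was at 1943, 2091 and 2053 with pMIG, against 1720, 1656 and 1769 with Blnk (log2 difference -0.24, SE 0.0681, limma adjusted p = 0.124). The difference between Pfkl and these 2 subunits was not tested.

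The following enzymes split the sugar into 3-carbon sugars and interconvert these. Aldoa, the main aldolase of most cells, was at 4897, 4576 and 4785 with pMIG, against 4065, 3821 and 4397 with Blnk, and its log2 difference of -0.22 did not pass (limma adjusted p = 0.225). Aldoc, the aldolase of brain, was dim at 57 to 69 with a log2 difference of -0.02. Tpi1, triosephosphate isomerase, was at 4089, 3777 and 4105 with pMIG, against 3235, 3111 and 3475 with Blnk. Its groups were apart, and the log2 difference of -0.29 did not pass (SE 0.0752, limma adjusted p = 0.101).

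The lower part of the pathway yields ATP and pyruvate. Pgk1, phosphoglycerate kinase, had a log2 difference of -0.10 (95% interval -0.26 to 0.05) and Pgam1, the mutase after it, of -0.08 (95% interval -0.28 to 0.12), both with overlapping groups. Pkm, pyruvate kinase, was at 4032, 3433 and 3976 with pMIG, against 3047, 3019 and 3213 with Blnk, apart but not past the threshold (log2 difference -0.30, limma adjusted p = 0.122). Ldha, which turns pyruvate into lactate, was at 7639, 7462 and 8013 with pMIG, against 7301, 6959 and 7396 with Blnk. Its arrays did not overlap either, by a small margin, and the log2 difference of -0.09 did not pass (95% interval -0.25 to 0.06, limma adjusted p = 0.593). That interval excludes a difference as large as the one fitted for Pfkl.

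Of the regulators, Pdk1 was the only 1 of 4 that passed, where 1.10% of all genes fell and 2.51% rose. Pfkfb3 and Pfkfb4 make and remove fructose 2,6-bisphosphate, an activator of phosphofructokinase. Pfkfb3 was at 401, 408 and 408 with pMIG, against 409, 439 and 360 with Blnk, without a consistent direction (log2 difference -0.02). Pfkfb4 was at 83, 88 and 82 with pMIG, against 107, 101 and 91 with Blnk, so it was higher on every Blnk array, and its log2 difference of 0.24 did not pass (SE 0.0816, limma adjusted p = 0.206). Txnip, an arrestin that curbs glucose uptake and is induced by glucose itself, was at 1087, 1089 and 1257 with pMIG, against 1035, 1285 and 1388 with Blnk. The groups of Txnip overlapped, with a log2 difference of 0.10 (95% interval -0.18 to 0.38, limma adjusted p = 0.769). Of the lactate carriers, Slc16a3 (MCT4), the exporter of strongly glycolytic cells, was at 97, 89 and 88 with pMIG, against 83, 77 and 86 with Blnk, a log2 difference of -0.16 that did not pass (limma adjusted p = 0.404).

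Hif1a, the oxygen-regulated subunit itself, was at 669, 742 and 695 with pMIG, against 812, 675 and 734 with Blnk. The groups overlapped and the log2 difference of 0.07 did not pass (95% interval -0.13 to 0.28, limma adjusted p = 0.777). Its protein is controlled mainly by degradation, which an array does not measure.

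Among the 14 hypoxia targets outside glycolysis, 1 fell (Bnip3) and 0 rose by limma, beside 1.10% and 2.51% of all genes. Of these 14, 11 had a fitted difference below 0, compared with 50.4% of all genes, and the median log2 difference was -0.14. At an unadjusted p under 0.05 these targets had 6 lower and 0 higher, beside 6.32% and 8.91% of all genes. Bnip3l (NIX), the relative of Bnip3 in mitophagy, was at 2873, 2796 and 3125 with pMIG, against 2408, 2375 and 2578 with Blnk. All Blnk arrays of Bnip3l were lower, and the log2 difference of -0.26 did not pass (SE 0.075, limma adjusted p = 0.14). P4ha1, a subunit of the collagen prolyl hydroxylase, was at 663, 671 and 780 with pMIG, against 552, 465 and 653 with Blnk (log2 difference -0.35, limma adjusted p = 0.252). Its relative P4ha2 was dim, at 33 to 36 with pMIG, against 31 on each Blnk array, where rounding to whole numbers is coarse.

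The targets that act on transcription had separate or overlapping groups without passing. Mxi1, a MAX partner that opposes MYC, was at 338, 322 and 344 with pMIG, against 299, 243 and 288 with Blnk (log2 difference -0.28, limma adjusted p = 0.19). Bhlhe40, a circadian and hypoxia repressor, was at 440, 456 and 454 with pMIG, against 296, 395 and 453 with Blnk. The 3 Blnk values of Bhlhe40 were spread widely, and Blnk 3 reached the pMIG level (log2 difference -0.26, 95% interval -0.60 to 0.07). Kdm3a, a histone demethylase, was at 811, 883 and 911 with pMIG, against 740, 738 and 954 with Blnk, with the highest and the lowest value both in the Blnk group (log2 difference -0.11).

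The remaining targets did not pass either. Vegfa, the blood vessel growth factor, was at 1940, 1906 and 2020 with pMIG, against 1699, 1896 and 1840 with Blnk, just apart, with a log2 difference of -0.11 (95% interval -0.28 to 0.06, limma adjusted p = 0.546). Ndrg1, a stress-induced gene, had a log2 difference of -0.24 (95% interval -0.45 to -0.02) and did not pass after adjustment (limma adjusted p = 0.271). Egln1, the prolyl hydroxylase that marks HIF1A for degradation and is itself a HIF target, was at -0.10 on the log2 scale (95% interval -0.30 to 0.10). Ankrd37 was at 231, 211 and 249 with pMIG, against 199, 196 and 284 with Blnk, again with Blnk 3 above and the other Blnk arrays below all pMIG arrays. Higd1a, a mitochondrial protein, was at 0.09 on the log2 scale. Car9 and Egln3, a carbonic anhydrase and a prolyl hydroxylase that rise steeply in hypoxic tissues, were dim on all arrays, at 36 to 41 and at 24 to 30, and had log2 differences of 0.06 and 0.14. Egln3 was 1 of the 2 members with every Blnk array above every pMIG array, by 1 unit of intensity, and the other was Pfkfb4.

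**Figure D3:**
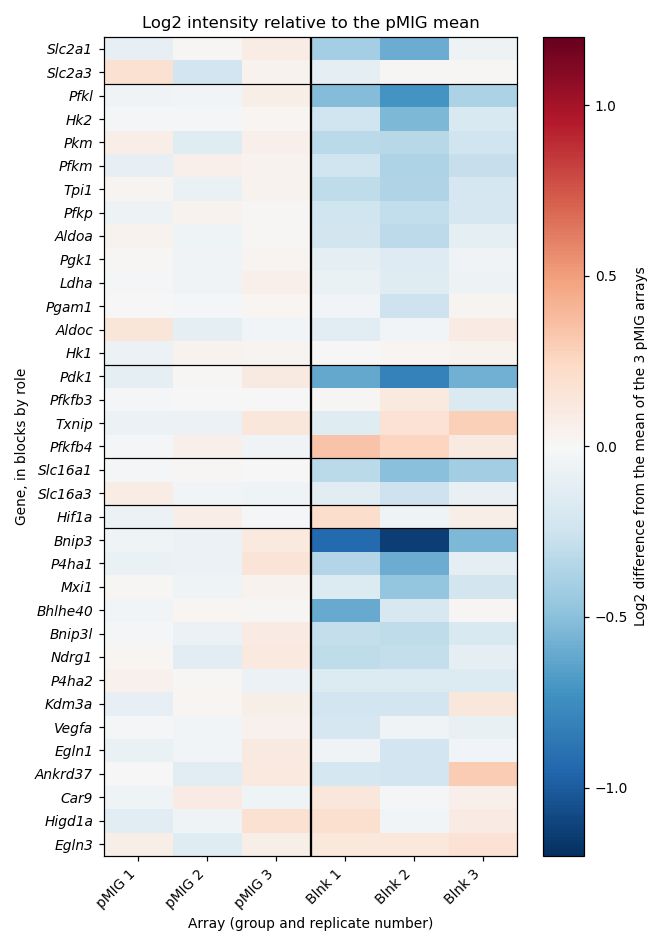
Log2 intensity of the 35 genes on each array relative to the mean of the 3 pMIG arrays (color scale), with genes in blocks by role from glucose carriers at the top to HIF-only targets at the bottom. The Blnk columns are mostly blue, deepest for Blnk 2 and palest for Blnk 3, and Bnip3 and Pdk1 are the deepest genes.

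Hypoxia targets outside glycolysis and glycolytic enzymes were then set side by side. The medians of their log2 differences were -0.14 and -0.23, a difference of 0.09 between the lists. It was 0.04 without Blnk 2 or without Blnk 3. It was -0.01 when dim genes were left out, which took Car9, Egln3 and P4ha2 off the target list. Averaged over the 12 enzymes, the log2 level relative to the pMIG mean was 0.0017, -0.03 and 0.03 on the pMIG arrays and -0.20, -0.29 and -0.13 on the Blnk arrays. Averaged over the 14 hypoxia targets it was -0.03, -0.04 and 0.07 on the pMIG arrays and -0.22, -0.27 and -0.05 on the Blnk arrays. The enzymes were lower on each Blnk array than on any pMIG array. The targets were barely apart, with Blnk 3 at -0.05 next to pMIG 2 at -0.04. The difference between both averages, targets minus enzymes, was -0.03, -0.01 and 0.04 with pMIG and -0.01, 0.02 and 0.08 with Blnk, so the groups overlapped. Averages over all genes stayed between -0.01 and 0.03. No test is given for these averages because the genes were chosen with earlier results known.

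**Figure D4:**
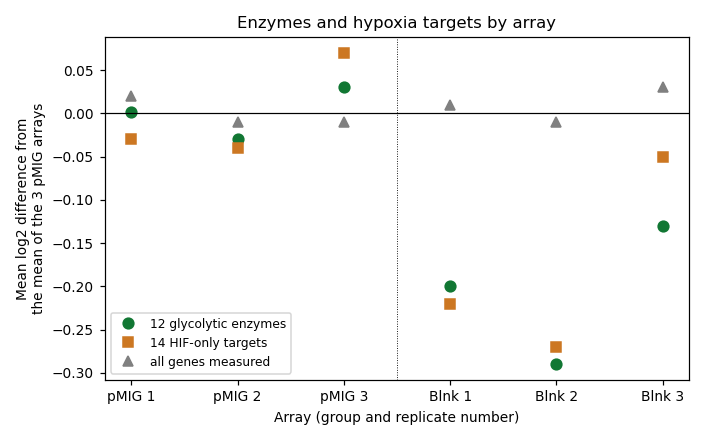
Mean log2 difference from the pMIG mean (y axis) on each of the 6 arrays (x axis) for the 12 glycolytic enzymes (circles), the 14 HIF-only targets (squares) and all 19938 genes (triangles). Both lists are at or below -0.05 on the Blnk arrays, with the lowest values on Blnk 2, while all genes stay between -0.01 and 0.03.

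Arrays within a group also differed in these genes. Blnk 2 had the lowest value of its group in 24 of the 35 genes and in 10 of the 12 enzymes, compared with 36.8% of all genes. Blnk 3 had the highest value of its group in 24 of the 35 genes and in 11 of the 12 enzymes, compared with 35.8% of all genes. In the pMIG group, pMIG 3 was highest in 10 of the 14 hypoxia targets and in 6 of the 12 enzymes, compared with 24.2% of all genes. The Blnk transcript was at 2714 on Blnk 1, 3342 on Blnk 2 and 3022 on Blnk 3, and its relation to this order was not tested. What sets these arrays apart was not tested. The arrays measure a mixture of cells, so fewer cells with a high level and less RNA per cell cannot be told apart.

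Where a gene had several probes of its own, they mostly gave similar differences. The second probe of Bnip3 was at 696, 686 and 857 with pMIG, against 415, 338 and 518 with Blnk, a log2 difference of -0.83 beside the -0.87 of the probe used. For Bnip3l both probes had separate groups, with log2 differences of -0.26 and -0.21. For Pkm the brightest probe lists no RefSeq mRNA, and the probe that does gave -0.22 beside -0.30, also with separate groups. The 3 probes of Pgk1 gave -0.10, -0.10 and -0.11, those of Pgam1 gave -0.08, -0.14 and -0.08, and those of Higd1a gave 0.09 and 0.19. The Pgk1 probe at -0.11 had separate groups, at 5134, 4974 and 5176 with pMIG, against 4710, 4551 and 4934 with Blnk. The Pgk1 probe used had overlapping groups. Of the Pgk1 and of the Pgam1 probes, 2 hold the same values on every array and count as 1 measurement.

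Counts in the neighboring parts of glucose metabolism are to be read beside the shares of all genes. By limma with adjustment 2.51% of all genes rose and 1.10% fell. At an unadjusted p under 0.05, 8.91% were higher and 6.32% lower. Among 16 measured isoenzymes and carriers beyond those above, 1 rose and 0 fell, with 0 lower and 2 higher at an unadjusted p under 0.05 and a median log2 difference of 0.01. The gene that rose was Slc2a6 (GLUT6), a carrier of intracellular membranes in leukocytes, at 123, 106 and 104 with pMIG, against 148, 163 and 187 with Blnk. Its log2 difference was 0.58 (SE 0.108, limma adjusted p = 0.03), and each fit on 5 arrays missed the threshold (0.0511 without pMIG 1 to 0.149 without pMIG 3), as did the fit after repeated quantile normalization (0.052). Pfkfb2, a further enzyme of fructose 2,6-bisphosphate, was at 0.32 on the log2 scale (limma adjusted p = 0.0689) and Bpgm, which makes 2,3-bisphosphoglycerate, at 0.18 (limma adjusted p = 0.4). Of 16 genes of the pentose phosphate pathway and glycogen, 0 rose and 0 fell by limma, and at an unadjusted p under 0.05 there were 2 in each direction. Taldo1, transaldolase, was at 0.34 (limma adjusted p = 0.0799), Ugp2, which makes UDP-glucose, at 0.24 (limma adjusted p = 0.28) and Pgm1, which joins glycogen to glycolysis, at -0.32 (limma adjusted p = 0.0769).

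Pyruvate entry and the citric acid cycle had 0 of 29 genes up and 1 down by limma (all genes, 2.51% and 1.10%). At an unadjusted p under 0.05 there were 4 lower and 0 higher (all genes, 6.32% and 8.91%), and the median log2 difference was 0.01. Pcx, pyruvate carboxylase, which feeds pyruvate into oxaloacetate, fell from 248, 272 and 264 with pMIG to 198, 165 and 181 with Blnk. Its log2 difference was -0.53 (SE 0.0867, limma adjusted p = 0.0163), and with 1 array left out it passed in 1 of 6 cases, without Blnk 1 (0.0275), and reached 0.0969 without pMIG 3. Pdha1, the catalytic subunit that Pdk1 inhibits, was at -0.31 (limma adjusted p = 0.0563) and Pdp1, the phosphatase that reverses that inhibition, at -0.24 (limma adjusted p = 0.169).

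Of 14 measured regulators of HIF, 0 rose and 0 fell by limma, and at an unadjusted p under 0.05 there were 3 above and 0 below, beside 8.91% and 6.32% of all genes. Vhl, which recruits hydroxylated HIF1A for degradation, was at 251, 277 and 274 with pMIG, against 320, 299 and 361 with Blnk (log2 difference 0.29, limma adjusted p = 0.167). Rbx1, a subunit of the same ubiquitin ligase, was at 0.26 (limma adjusted p = 0.126) and the coactivator Ep300 at 0.21 (limma adjusted p = 0.275). Of 36 further HIF targets, 1 rose and 2 fell by limma, beside 2.51% and 1.10% of all genes. At an unadjusted p under 0.05, 4 were lower and 2 higher, beside 6.32% and 8.91% of all genes. The median log2 difference was -0.06. Rragd, a GTPase of amino acid sensing, was at 713, 822 and 756 with pMIG, against 366, 316 and 346 with Blnk, a log2 difference of -1.16 (SE 0.0868, limma adjusted p = 0.000383) that passed with any 1 array left out.

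Plod2, a lysyl hydroxylase of collagen, was at 616, 640 and 758 with pMIG, against 451, 377 and 406 with Blnk, a log2 difference of -0.70 (limma adjusted p = 0.0107). It passed in 3 of 6 cases with 1 array left out, and not without pMIG 3 (0.0538), Blnk 2 (0.0707) or Blnk 3 (0.0718). Pgf, placental growth factor, went the other way, from 138, 144 and 121 with pMIG to 220, 335 and 371 with Blnk, a log2 difference of 1.17 (limma adjusted p = 0.0142). Of the fits on 5 arrays just that without Blnk 1 passed (0.00407), and the others ran up to 0.1 without Blnk 2.

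Among 25 genes of MYC, MondoA and nutrient sensing, 1 rose and 1 fell by limma, beside 2.51% and 1.10% of all genes. At an unadjusted p under 0.05, 5 were lower and 5 higher, beside 6.32% and 8.91% of all genes. The median log2 difference was -0.06. Myc, which drives many glycolytic genes and Slc16a1, fell by 0.44 on the log2 scale (SE 0.0714, limma adjusted p = 0.0161), from 4369, 4319 and 4470 with pMIG to 3430, 3243 and 3046 with Blnk. With 1 array left out it passed in 1 of 6 cases, without Blnk 1 (0.0307). Sesn3, a stress-induced inhibitor of mTORC1, rose from 373, 395 and 396 to 535, 546 and 564, a log2 difference of 0.50 (limma adjusted p = 0.00662) that passed with any 1 array left out, while its relative Sesn2 was at -0.32 (limma adjusted p = 0.0589).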

How the data were processed

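The authors deposited linear probe intensities that are whole numbers, from 3 to 22187. RMA is listed among the submitters' processing notes, without a version. RMA ends in log2 values, and whether the intensities are these values, antilogged and rounded, could not be settled from the values. Log2 was taken with nothing added. Of 35421 probes, 21789 had 1 gene symbol in the platform annotation, 1621 several and 12011 were not listed. Groups were compared with limma 3.58.1 in R 4.3.3 (lmFit and eBayes, two-sided, group as the only term), after tests on simulated data, with Benjamini-Hochberg adjustment over all 19938 genes. Differences are Blnk minus pMIG. Values were given for genes past 0.05, the next 6, Hif1a, Ldha, Vegfa and Txnip, with Blnk as the label check, and related lists gave their genes past it and up to 3 with the smallest adjusted p. Further members were described after their values were seen. Members, lists and tests were chosen with earlier results of these data known. Symbols and promoters came from RefSeq tables of GRCm38.p6. The number of arrays limits the precision.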

Additional observations from a re-analysis of the deposited data

How the results depend on the processing

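Where 720 genes changed in the fit as reported, 289 changed in a fit with the replicate number as a block. In that fit 2 of the 4 members, Bnip3 and Pdk1, passed, and 0.406% of all genes were lower. Of the related genes called above, Rragd passed in it (limma adjusted p = 0.0123). Sesn3 (0.0519), Plod2 and Pgf (0.0617 each), Myc (0.0975), Pcx (0.104) and Slc2a6 (0.145) did not. The samples share only a number: same-numbered deviations correlated at -0.187, 0.0578 and -0.12, and the closest pair was pMIG 1 with Blnk 3 (0.283). Leaving out dim genes (below the 40th percentile) kept 11963 genes and 31 members, of which 1228 and 8 changed. Adding 16 before log2 gave 1100 and 7, and a variance prior with trend and robust estimation gave 1539 and 13. In each case 0 members were higher, and of all genes fitted 3.52%, 1.8% and 2.6% were lower. Without 1 array, 267 to 437 genes and 0 (without pMIG 3) to 3 (without Blnk 3) members passed. Of all genes 0.361% to 0.667% were lower in these fits. The median of the HIF-only targets was -0.24 without dim genes, and its difference from the enzymes then was -0.01. In that setting Car9 (0.06), Egln3 (0.14) and P4ha2 (-0.16) were left out. The fitted differences of the kept targets stayed the same, so that median is over a shorter list. With 1 array left out the difference from the enzymes ranged from 0.04 to 0.12. Fewer arrays weaken the test by construction, and beyond that shorter list the cause of the other shifts was not tested. The enzyme median stayed between -0.27 and -0.19 under all 15 alternatives. Settings on all 6 arrays that kept the members' count within 1.5 times were repeated quantile normalization, median centring, the mean of all probes, array weights and, chosen after the data were seen, probes with a RefSeq mRNA. For 54 named genes, 0 of 806 values reversed a called direction, and 13 uncalled values changed sign.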
